A study of Homo sapiens with 3 samples.

Results

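The nuclear genes for the subunits of oxidative phosphorylation were followed across 3 expression arrays of a CRISPR activation experiment. Members were the probe sets whose single gene symbol starts with NDUFA, NDUFB, NDUFC, NDUFS, NDUFV, SDHA to SDHD, UQCR, COX4 to COX8 or ATP5, without pseudogenes and NDUFAF assembly factors. The rule found 103 of 22277 probe sets, which stand for 69 genes. Of these, 99 sets of 66 genes encode subunits of the complexes or ATP5IF1, the inhibitor protein of the ATP synthase. The other 4 sets fell under the rule by their first letters: 2 sets of SDHAF1 and 1 of SDHAF3, both assembly factors of complex II, and 1 of NDUFB2-AS1, an antisense RNA.

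HEK293T cells, a human embryonic kidney line with the SV40 large T antigen, were transfected with dCas9VP160 and a guide RNA, and total RNA was measured on 1 array per guide. dCas9VP160 is a Cas9 that cannot cut, joined to a transcriptional activation domain, and was present in all 3 samples. The sgTetO sample received a guide to the TetO promoter, a bacterial operator used in reporter genes, and the sgTetOmut sample a mutant form of it labelled as a non-targeting control. The sgIL1RN1~3 sample received guides to the promoter of IL1RN, the interleukin-1 receptor antagonist gene. Both TetO guides serve as controls here. No sample without dCas9VP160 or without transfection was analysed here, and the labels name no selection of the transfected cells. With 1 array per guide there is no replicate check, no test and no p-value, and the array number limits precision. The difference between the control arrays is given beside each result as the one available measure of how far arrays differ. The control arrays received different guides and are not repeats, so in it guide, sample and array cannot be told apart.

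Oxidative phosphorylation couples electron transfer along the inner mitochondrial membrane to ATP synthesis. Complex I (NADH dehydrogenase) and complex II (succinate dehydrogenase) pass electrons through ubiquinone to complex III (the cytochrome bc1 complex) and complex IV (cytochrome c oxidase), and complex V (ATP synthase) uses the resulting proton gradient. Apart from complex II, each complex combines subunits of the mitochondrial genome with the nuclear ones described here. The nuclear genes are known to share promoter elements for NRF1, the ETS factor GABP and YY1, and PGC-1 coactivators act through such factors.

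These elements are shown first, because they stood in a larger share of member promoters than of all promoters of array genes. RefSeq promoters (GRCh38.p14, from 250 bases before to 50 bases after the start site) were matched for 58 of the 66 genes. The NRF1 word GCGCATGCG, read on both strands (CGCATGCGC on the other), stood in a promoter of 11 of 58 member genes (19.0%). The share was 3.48% of 9562 genes on the array with a promoter and 2.34% of 27305 genes in the whole promoter table. The ETS word CCGGAAGT (ACTTCCGG on the other strand), which GABP binds, stood in 10 member genes (17.2%), against 7.47% of array genes and 4.95% of all genes. The YY1 word AAGATGGCG (CGCCATCTT on the other strand) stood in 8 member genes (13.8%), against 3.95% and 2.14%. At least 1 of the 3 words was found in 25 member genes (43.1%), against 13.8% of array genes and 8.77% of all genes. The NRF1 word is nearly its own reverse complement, so a site can match on both strands, and it was counted once per gene. A match describes the letters in this window and is no evidence of binding.

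The windows below show the NRF1 word in capitals in 3 members from 3 complexes, printed 5′ to 3′ on the strand of the gene and ending before the start site.
NDUFB4 (chr3:120596153-120596209, plus strand): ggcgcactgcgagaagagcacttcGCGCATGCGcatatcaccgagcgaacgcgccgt
SDHD (chr11:112086739-112086795, plus strand): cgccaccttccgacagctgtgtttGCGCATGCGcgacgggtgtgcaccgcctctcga
ATP5ME (chr4:674322-674378, minus strand): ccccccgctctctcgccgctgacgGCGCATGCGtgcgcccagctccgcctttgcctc

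The ETS word is in capitals in the next windows, from a complex III and a complex IV gene.
UQCRQ (chr5:132866564-132866619, plus strand): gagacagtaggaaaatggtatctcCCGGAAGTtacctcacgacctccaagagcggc
COX8A (chr11:63974577-63974619, plus strand): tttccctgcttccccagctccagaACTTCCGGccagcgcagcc
The NRF1 word occurred in 5 of 27 genes of complex I, 1 of 2 of complex II, 0 of 5 of complex III, 1 of 11 of complex IV and 4 of 13 of complex V. The difference between complexes was not tested. Of the genes with the largest differences described below, UQCRC1 and NDUFB8 held the YY1 word, and NDUFV1, NDUFA10, SDHA and NDUFB1 held none of the 3 words.

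Values are the authors' log2 intensities per probe set, so a difference of 1 is a 2-fold change. A set was taken as above background when it exceeded the highest of 27 Bacillus subtilis control sets of its array, which lay at 3.29 on sgTetOmut and 3.40 on the other arrays. Above it on every array lay 93 of 99 subunit sets (93.9%), against 13454 of 19070 single-symbol sets (70.6%). By complex these were 33 of 35 sets of complex I, 6 of 7 of complex II, 9 of 9 of complex III, 18 of 20 of complex IV and 27 of 28 of complex V. Levels of different probe sets were not set against each other, because their probes differ. The targeted gene served as a check of the labels: the IL1RN set 212657_s_at read 2.23 on sgTetOmut, 2.28 on sgTetO and 7.01 on sgIL1RN1~3, and was above background on that array alone. The other 4 IL1RN sets lay between 1.98 and 3.80 on all arrays. All 8 listed HEK293T markers were above background on every array. KRT8 (3.95, 3.95 and 4.32) and PAX8 (3.92, 3.74 and 3.74) lay near it. The muscle markers CKM, MB and MYL2 and the blood markers PTPRC and CD3E were at background on every array. Above it on every array were 2 of 5 measured muscle markers (ACTN2 and MYH7) and 2 of 4 blood markers (CD14 and HBB). So were 1 of 3 endothelial, 2 of 3 fibroblast, 1 of 2 liver and 2 of 3 testis markers.

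The signs of RNA quality on the chip differed between arrays. The 5′ probe set for ACTB, a chip control for RNA integrity and labelling, read 7.61 on sgTetOmut, 7.48 on sgTetO and 8.43 on sgIL1RN1~3, and the 3′ set read 13.34, 13.34 and 13.41. The 5′ set for GAPDH read 9.17, 8.99 and 9.83, with 11.87, 11.92 and 11.91 at the 3′ end. The sets for the middle of the transcripts read 10.01, 9.96 and 10.65 for ACTB and 10.52, 10.48 and 11.06 for GAPDH. On sgIL1RN1~3 these middle sets were higher than on the controls by 0.54 to 0.69. The sgIL1RN1~3 array thus stood apart at the 5′ ends and in the middle, and not at the 3′ ends. The part of this in the differences of sgIL1RN1~3 from the controls was not tested. In such bulk samples, fewer cells and less RNA per cell cannot be told apart.

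On the sgIL1RN1~3 array nearly all subunit sets lay within 1.5-fold of both controls. UQCRC1, a core subunit of complex III, was the 1 member that exceeded the limit, and no member was lower by as much. The background was 1.41% of 14288 tested sets higher (202 sets) and 0.945% lower (135 sets), so 1 of 94 tested subunit sets (1.06%) is near the background. Between the control arrays 0 members differed by 1.5-fold in either direction, where 0.455% of all tested sets were higher on sgTetO and 1.32% lower.

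At a lower limit of 0.32 log2 units against both controls, 4 subunit sets were higher on sgIL1RN1~3 (4.26% of 94), namely UQCRC1, NDUFV1, NDUFA10 and SDHA, and 2 were lower (2.13%), namely NDUFB1 and 1 set of NDUFB8. The background was 7.94% higher and 5.24% lower, and the difference of these shares from those of the subunits was not tested. Among the members that are no subunit, the SDHAF1 set 221855_at also was higher. The same 7 sets passed after quantile, cyclic loess and median scaling of the arrays. Between the controls at this limit, 0 subunit sets passed and NDUFB2-AS1 was higher on sgTetO, against 3.13% of tested sets higher and 5.96% lower.

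**Figure D1:**
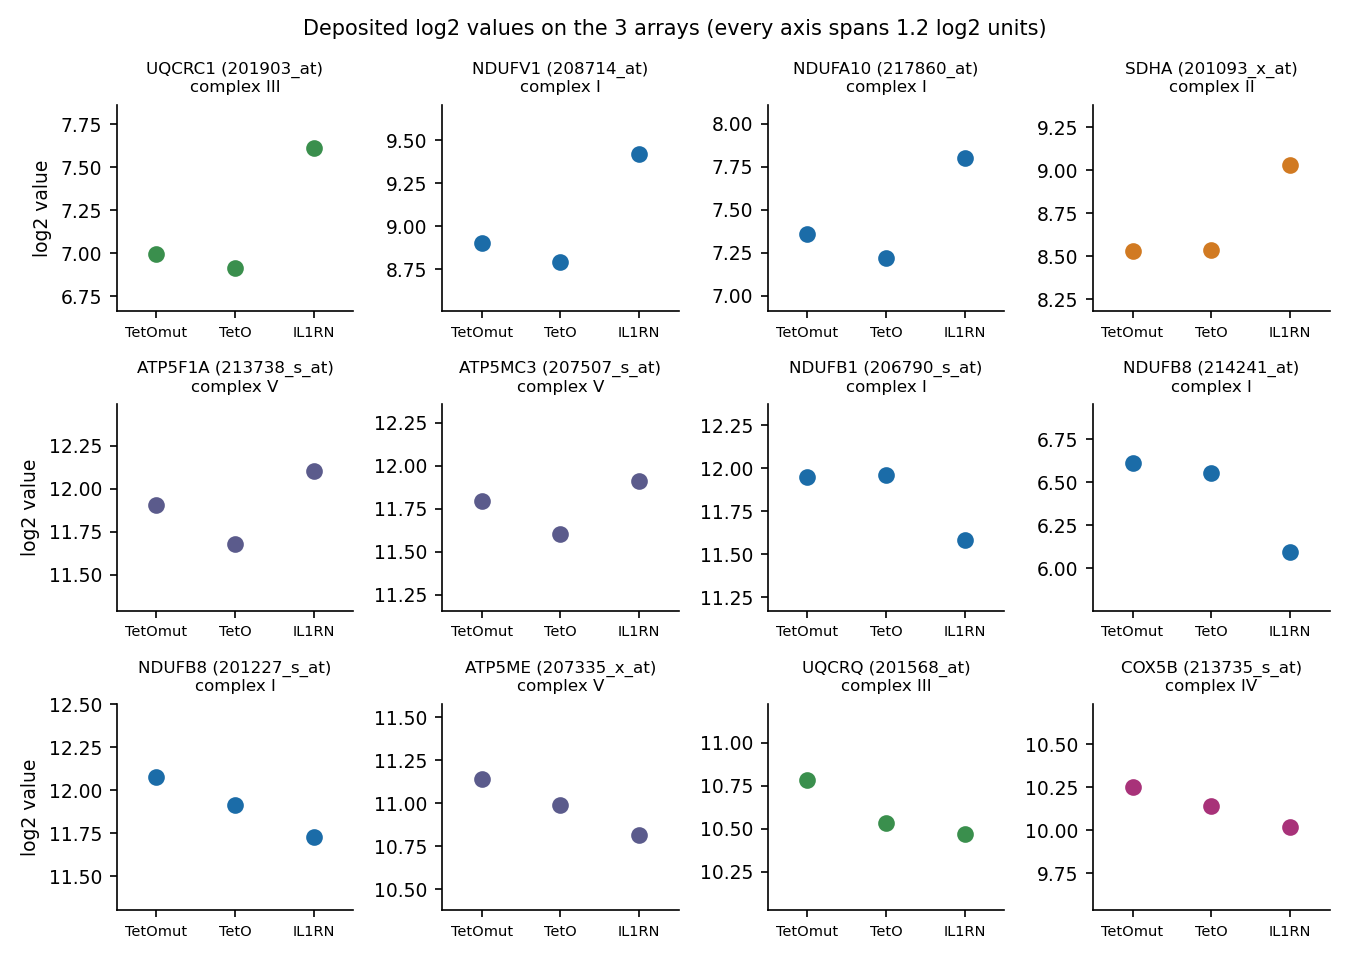
Deposited log2 values (y axis, 1.2 log2 units in every panel) of 12 subunit probe sets on the sgTetOmut, sgTetO and sgIL1RN1~3 arrays (x axis), 1 point per array, coloured by complex. UQCRC1 lies at 6.99, 6.92 and 7.61, and the control points lie closer to each other than to sgIL1RN1~3 in UQCRC1, NDUFV1, NDUFA10, SDHA, NDUFB1 and NDUFB8 214241_at. By a small margin the same holds in NDUFB8 201227_s_at, ATP5ME 207335_x_at and COX5B 213735_s_at.

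In complex I, the catalytic core subunits differed in direction. NDUFV1, the flavoprotein subunit that takes electrons from NADH, read 8.90 on sgTetOmut, 8.79 on sgTetO and 9.42 on sgIL1RN1~3. It was 1.54-fold above sgTetO and 1.43-fold above sgTetOmut, just outside the 1.5-fold rule on the latter. NDUFS7, an iron-sulfur core subunit, went the other way, with 5.45, 5.64 and 5.24, and its difference from sgTetOmut (-0.21) was about the size of that between the controls (0.20). The other core sets, of NDUFS1 (8.86, 8.93 and 8.76), NDUFS3 (9.36, 9.35 and 9.24) and NDUFV2 (9.81, 9.77 and 9.73), each held their lowest value on sgIL1RN1~3.

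Accessory subunits surround that core and carry no redox centre. NDUFA10 read 7.36 on sgTetOmut, 7.22 on sgTetO and 7.80 on sgIL1RN1~3. NDUFB7 had its highest value on sgIL1RN1~3 in both sets, with 7.19, 7.39 and 7.59 for 202839_s_at and 4.20, 3.99 and 4.34 for 211407_at. These sets were ordered differently on the controls, where they differed by 0.19 and -0.21.

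NDUFB1 read 11.95, 11.96 and 11.58, lower on sgIL1RN1~3 than on the closely matched controls. NDUFB8, a membrane-arm subunit, gave 3 readings that did not move together: 6.62, 6.56 and 6.09 for 214241_at, 12.08, 11.91 and 11.73 for 201227_s_at, and 9.82, 9.66 and 9.86 for 201226_at. The last set was highest on the array on which the other sets were lowest. NDUFB5, the complex I set with the lowest value on sgTetO relative to sgTetOmut, read 9.51, 9.24 and 9.32. For NDUFA2 and NDUFA5, 1 set each was at background (209223_at and 215850_s_at), and the other set read 8.01, 7.99 and 7.91 for NDUFA2 and 10.33, 10.39 and 10.08 for NDUFA5.

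Complex II has no mitochondrially encoded subunit and also serves the tricarboxylic acid cycle. SDHA, its flavoprotein, read 8.53 on sgTetOmut, 8.54 on sgTetO and 9.03 on sgIL1RN1~3 in its only set, 201093_x_at. The last value was 1.42-fold and 1.41-fold above the controls. The membrane anchors did not follow SDHA as a group. SDHC 216591_s_at was highest on sgIL1RN1~3 with 6.00, 6.11 and 6.34. SDHC 202004_x_at (9.36, 9.17 and 9.35), 210131_x_at (10.24, 10.00 and 10.16) and 215088_s_at (10.76, 10.65 and 10.61) were highest on sgTetOmut. SDHD, the other anchor, read 9.33, 9.25 and 9.11 in 202026_at and was at background in 215652_at. The assembly factor SDHAF1, which helps insert iron-sulfur clusters into complex II, was highest on sgIL1RN1~3 in both sets, with 5.03, 5.06 and 5.44 for 221855_at and 5.90, 6.07 and 6.38 for 44669_at. SDHAF3 read 7.23, 7.37 and 7.28.

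In complex III, UQCRC1 stood apart from the other 8 sets. It read 6.99 on sgTetOmut, 6.92 on sgTetO and 7.61 on sgIL1RN1~3, which is 1.53-fold and 1.62-fold above the controls, while the controls differed by -0.08. Its partner core protein UQCRC2 read 9.28, 9.01 and 9.21 in 200883_at and 11.36, 11.28 and 11.16 in 212600_s_at, highest on sgTetOmut in both. The small subunits were also highest on sgTetOmut. UQCRQ, which lies next to cytochrome b, read 10.78, 10.53 and 10.47. UQCRB read 12.34, 12.31 and 12.24 in 205849_s_at, 8.89, 8.74 and 8.75 in 209065_at, and 12.25, 12.15 and 12.16 in 209066_x_at. UQCR11 read 10.05, 10.01 and 10.01, and UQCR10 7.81, 7.58 and 7.62. CYC1, the cytochrome c1 subunit of complex III that the symbol rule does not cover, read 7.98, 7.91 and 8.32 and was higher on sgIL1RN1~3 than on both controls by at least 0.32.

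No set of complex IV passed the lower limit against both controls. Its nuclear subunits surround a catalytic core that the mitochondrial genome encodes, and several exist as tissue forms. COX5B, a zinc-binding subunit, was highest on sgTetOmut in all 4 sets, as in 213735_s_at with 10.25, 10.14 and 10.02 and in 213736_at with 9.61, 9.46 and 9.39. COX4I1, which joins the catalytic core early in assembly, read 11.44, 11.30 and 11.28 in 200086_s_at and 10.34, 10.21 and 10.15 in 202698_x_at. The third COX4I1 set, 213758_at, was highest on sgTetO with 6.16, 6.39 and 6.02. COX8A (10.52, 10.27 and 10.59) and COX7A2L (12.29, 12.15 and 12.33), a protein that links complexes III and IV into supercomplexes, were highest on sgIL1RN1~3. Of the 18 complex IV sets above background on every array, these 2 had that order, and both exceeded sgTetOmut by less than 0.1.

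The muscle forms of complex IV subunits were at or near background in these cells. COX6A2, the heart and muscle form, was at background with 3.02, 3.06 and 2.96, whereas the widely expressed COX6A1 read 10.40, 10.39 and 10.27. COX7A1, another muscle form, read 3.27, 3.50 and 3.59 and was above background on 2 arrays, whereas COX7A2 read 12.63, 12.54 and 12.59. COX6B1 (11.19, 10.94 and 10.96) was highest on sgTetOmut, and COX6C (12.00, 12.01 and 11.86) and COX7B (13.28, 13.26 and 13.25) were lowest on sgIL1RN1~3. COX4I2, COX6B2, COX7B2 and COX8C were not analysed here.

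In complex V, the catalytic head and the peripheral parts were ordered differently on the arrays. ATP5F1A and ATP5F1B, the alpha and beta subunits that form the catalytic head, read 11.90, 11.68 and 12.11 and 12.09, 11.94 and 12.19, each highest on sgIL1RN1~3 and lowest on sgTetO. The difference between the controls was -0.22 for ATP5F1A, of the size of its difference from sgTetOmut on sgIL1RN1~3 (0.20). ATP5F1C, the gamma subunit of the central stalk, differed by at most 0.15 between arrays in 205711_x_at, 208870_x_at and 213366_x_at. Its set 214132_at was highest on sgTetO with 5.89, 6.04 and 5.72.

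ATP5MC1, ATP5MC2 and ATP5MC3 encode the same mature c subunit of the rotor ring with different import sequences. ATP5MC3 was highest on sgIL1RN1~3 in both sets, with 12.17, 11.87 and 12.21 for 207508_at and 11.80, 11.60 and 11.91 for 207507_s_at. ATP5MC1 (9.62, 9.49 and 9.44) and ATP5MC2 208764_s_at (9.41, 9.13 and 9.25) were highest on sgTetOmut, and ATP5MC2 207552_at was at background. ATP5MC3 207508_at had the lowest value of all 93 sets for sgTetO minus sgTetOmut, -0.30.

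The accessory subunits of the membrane part and the peripheral stalk, without the c ring, were lower on sgIL1RN1~3 than on sgTetOmut in all 13 sets. Of all 13454 sets above background, 46.5% were. The 13 sets stand for fewer genes: ATP5MG had 4 of them, and ATP5ME, ATP5MJ and ATP5PO 2 each. Sets of 1 gene on the same arrays are no independent evidence of each other. Between the controls, 11 of the 13 were lower on sgTetO than on sgTetOmut, against 54.3% of all sets. Against sgTetO, 8 of the 13 were lower on sgIL1RN1~3 and 5 higher. The medians were -0.16 from sgTetOmut, -0.04 from sgTetO and -0.08 between the controls. ATP5ME, which takes part in dimers of the enzyme, read 11.14, 10.99 and 10.82 in 207335_x_at and 11.39, 11.33 and 11.15 in 209492_x_at. ATP5MG read 11.43, 11.15 and 11.19 in 208746_x_at, and its other 3 sets also were highest on sgTetOmut. ATP5IF1, the inhibitor protein, read 9.22, 9.30 and 9.09.

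**Figure D2:**
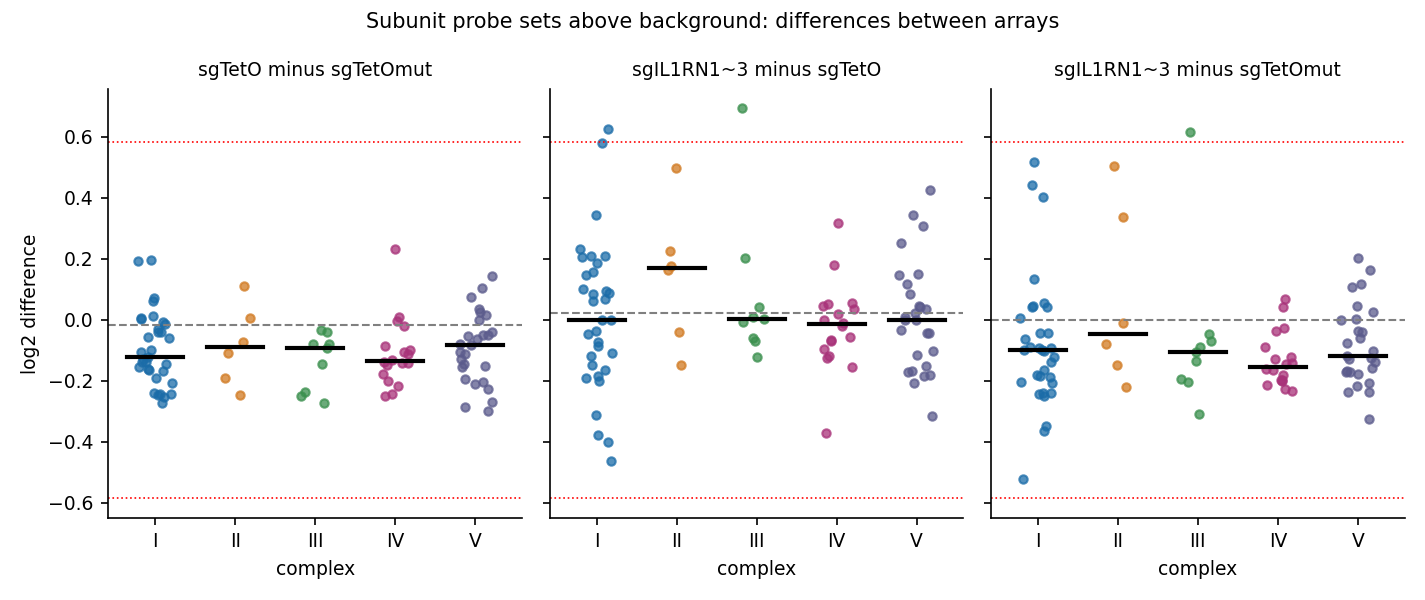
Log2 differences (y axis) of the 93 subunit sets above background by complex (x axis) for the 3 pairs of arrays, 1 point per set, with the median of the complex as a black bar, the median of all sets as a dashed grey line and the 1.5-fold limits as dotted red lines. Between the controls all points lie from -0.30 to 0.23, and UQCRC1 lies above the upper line in both panels of sgIL1RN1~3.

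Small differences in one direction were the pattern of the group between the control arrays. All 93 subunit sets above background differed by less than 0.32 between sgTetO and sgTetOmut, against 12400 of 13454 of all such sets. Yet 75 of the 93 (80.6%) were lower on sgTetO, against 54.3% of all sets, and the median difference was -0.11 against -0.02. By complex the median was -0.12 in I, -0.09 in II, -0.09 in III, -0.13 in IV and -0.08 in V. Rescaling moved some of these by over 1.5 times: complex I became -0.06 with quantile scaling and -0.08 with cyclic loess, and complex III -0.06 with cyclic loess and with median centring. Complex II became -0.04, -0.05 and -0.06, and complex V -0.05, -0.05 and -0.05, with quantile, cyclic loess and median scaling. Against sgIL1RN1~3, the medians from sgTetOmut were -0.10, -0.05, -0.10, -0.15 and -0.12, and those from sgTetO 0.00, 0.17, 0.00, -0.01 and 0.00. The 3 comparisons share arrays and are no independent evidence of each other.

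Seen as an order of the arrays, 59 of 93 subunit sets (63.4%) had their highest value on sgTetOmut, against 28.4% of all 13454 sets. Highest on sgTetO were 13 (14.0%) against 24.4%, and highest on sgIL1RN1~3 were 20 (21.5%) against 41.3%. Lowest on sgTetOmut were 6 sets (6.45%) against 22.5%, lowest on sgTetO 41 (44.1%) against 37.5%, and lowest on sgIL1RN1~3 44 (47.3%) against 33.3%. Ties, 1 for the highest and 2 for the lowest value, were counted apart. Highest on sgTetOmut were 19 of 33 sets of complex I, 4 of 6 of complex II, 8 of 9 of complex III, 14 of 18 of complex IV and 14 of 27 of complex V. The differences behind this order were small: on sgTetOmut, 0 members differed from both other arrays by 0.32 or more, against 2.02% higher and 0.917% lower of all tested sets. Of the 56 sets (0.392%) that were 2-fold or more higher on sgTetOmut than on either other array, 0 were members. Rescaling lowered this share and left it above that of all sets. With quantile scaling the share highest on sgTetOmut was 52.7%, with cyclic loess 58.1% and with median centring 60.2%, against 24.7%, 26.1% and 25.8% of all sets. The median difference of sgTetO from sgTetOmut then was -0.07, -0.07 and -0.08, and that of all sets 0.01, 0.01 and 0.02. With 1 set per gene, that with the highest mean, the share highest on sgTetOmut was 62.5%, against 29.2% of all genes. Because each array was measured once, the spread of such a median between repeated arrays of 1 guide is unknown.

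**Figure D3:**
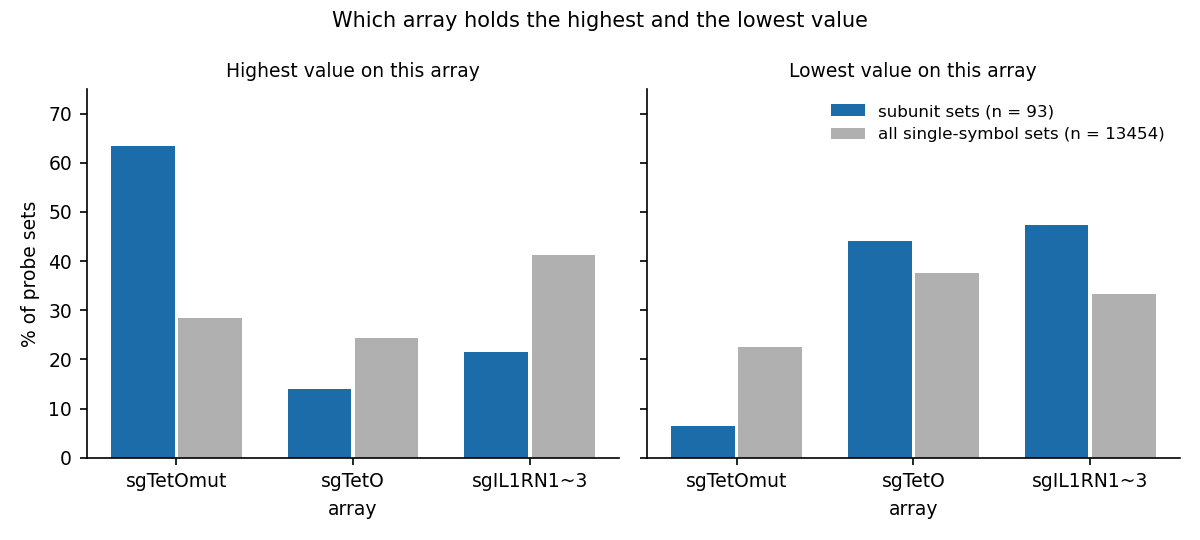
Share of probe sets (y axis, percent) whose highest (left) or lowest (right) value fell on each array (x axis), for the 93 subunit sets in blue and all 13454 single-symbol sets above background in grey. The blue bar for the highest value on sgTetOmut reaches 63.4% and the grey bar 28.4%.

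Core subunits, those of the redox core of complex I, all of complex II, the core proteins of complex III and the head and rotor of complex V, were set beside the accessory ones. Lower on sgIL1RN1~3 than on sgTetOmut were 15 of 27 core sets and 55 of 65 accessory sets, with medians of -0.07 and -0.14. Of all 13454 sets above background, 46.5% were lower, with a median of 0.00. Against sgTetO the medians were 0.12 and 0.00. By complex, the core and accessory counts of lower sets were 4 of 5 and 20 of 28 in complex I, 2 of 3 and 6 of 6 in complex III, and 5 of 13 and 13 of 13 in complex V. In complex I the medians were -0.09 and -0.10, so the split of complex V was not seen there among the sets under the rule. Both sets of NDUFS8, a core subunit outside the rule, were higher on sgIL1RN1~3 than on sgTetOmut (0.02 and 0.28). The accessory NDUFS5 and NDUFC2, also outside it, were lower (-0.12 and -0.05). All sets of complex II were core sets and all of complex IV accessory ones. Between the controls, 19 of 27 core sets and 56 of 65 accessory sets were already lower on sgTetO than on sgTetOmut. Their medians were -0.08 and -0.13, and 54.3% of all sets were lower, with a median of -0.02. In complex V, 9 of 13 core and 11 of 13 accessory sets were lower on sgTetO than on sgTetOmut. This split into core and accessory subunits was made after the values had been seen, and no test was made of it.

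Probe sets of 1 gene could be compared with each other. For the 17 genes with at least 2 sets above background, the sets of a gene differed by a median of 0.11 in how far sgIL1RN1~3 lay from the control mean. The smallest gap was 0.02, in ATP5MC3, the largest was 0.62, in NDUFB8, and 6 of the 17 genes had sets of both signs. For sgTetO minus sgTetOmut the median gap also was 0.11, and the largest was 0.40, in NDUFB7. Genes with 1 set, among them UQCRC1, NDUFV1, NDUFA10, SDHA and NDUFB1, have no such measure. Of the subunit sets, 19 of 99 (19.2%) carry the suffix x_at, which marks probes that can match other transcripts, against 9.67% of all sets. Named pseudogenes exist for 40 of the 66 genes, 172 in all and at most 18 for 1 gene (COX6C), so signal from such copies cannot be told apart from the gene's own.

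**Figure D4:**
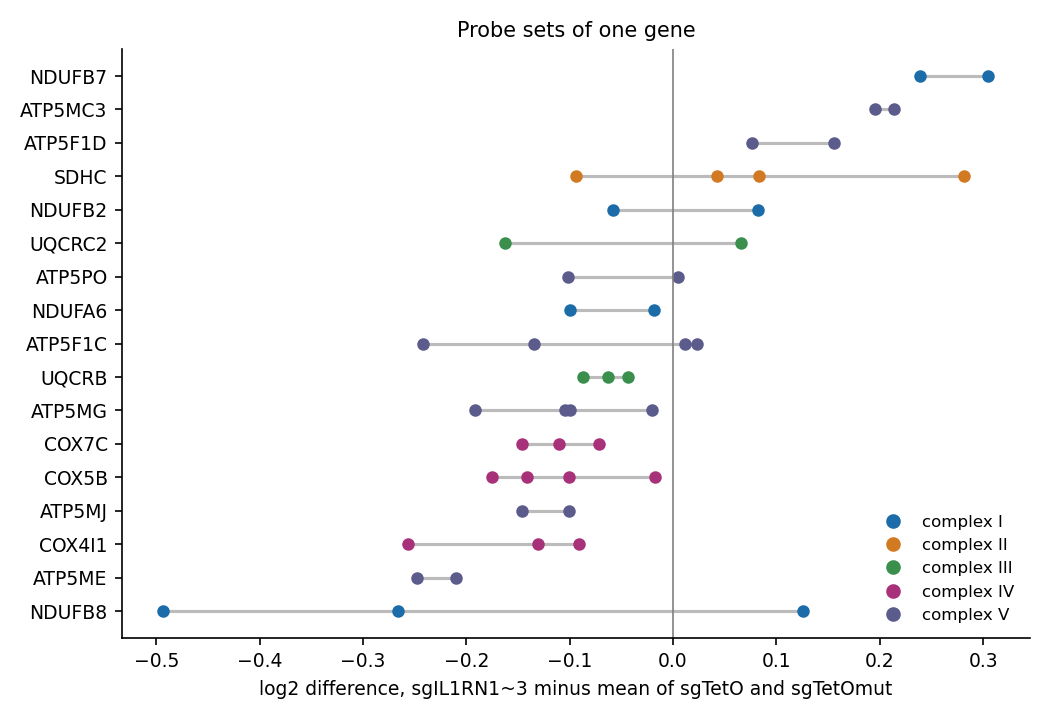
Log2 value on sgIL1RN1~3 minus the control mean (x axis) for each probe set of the genes with more than 1 set above background (y axis), 1 point per set coloured by complex, joined by a grey line per gene. NDUFB8 spans 0.62, and most other genes span far less, with a median of 0.11.

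Other mitochondrial genes also lay largely within 1.5-fold of both controls. Among 196 sets of 134 genes for assembly factors, the tricarboxylic acid cycle, electron carriers, biogenesis regulators, protein import and the mitochondrial ribosome, 1 set was higher and 1 lower on sgIL1RN1~3 than on both controls, beside 1.41% and 0.945% of all tested sets. The higher set was MRPS12 204331_s_at, of a small-subunit ribosomal protein, with 4.62, 4.62 and 5.24. The lower was TIMM8A 210800_at, of an import chaperone, with 7.79, 8.12 and 6.93, whereas the other TIMM8A set, 205217_at, read 8.78, 8.84 and 8.80. Between the controls 0 sets of these lists passed. The lists are not separate from the members: they include the sets of SDHAF1 and SDHAF3, and they also hold CYC1 of complex III.

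At the lower limit, 12 of the 196 sets were higher and 7 lower, beside 7.94% and 5.24% of all tested sets. Among the 12 were CYC1 and SDHAF1 221855_at, the latter also counted with the members above. ETFA, which brings electrons from fatty acid oxidation, was higher with 9.75, 9.65 and 10.14. Of the 24 sets of biogenesis regulators, 2 were higher and 1 was lower. The higher ones were TFAM 208541_x_at (5.40, 5.40 and 5.77) and POLRMT 203783_x_at (3.48, 3.57 and 4.05). Other sets of these genes did not pass. The lower set was that of PPARGC1A, the coactivator PGC-1 alpha, with 7.03, 7.10 and 6.65. CYCS, cytochrome c, was lowest on sgIL1RN1~3 with 11.93, 12.01 and 11.64 and did not reach the limit against sgTetOmut. The median difference of sgTetO from sgTetOmut was -0.02 for assembly factors, -0.07 for the tricarboxylic acid cycle, 0.01 for electron carriers, 0.00 for biogenesis regulators, -0.05 for protein import and -0.05 for the mitochondrial ribosome, beside -0.11 for the subunits. These medians describe single arrays, and the difference between the lists was not tested. Mitochondrially encoded subunits were not analysed here.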

How the data were processed

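The authors deposited log2 values per probe set for the 3 arrays, per the file headers 1 column each. The affy package was used, per the submitters' processing notes. Its version, background correction, scaling and summary method were not given in the sources used here. A difference is relative to the bulk of genes. The log2 unit was read from the values. Probe sets were named from the platform's annotation in GEO: 19070 had 1 symbol, 1043 several and 2164 none.

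A set was counted when it differed by at least 1.5-fold on sgIL1RN1~3 from each control and its higher value exceeded the Bacillus floor of that array. All sets with 1 symbol above the floor on at least 1 array (14288) gave the background. Medians and orders used sets above it on every array. Named were, per complex, the 3 highest and 3 lowest sets against the mean of the controls, the other sets of those genes, the 5 highest and 5 lowest sets between controls, paralog groups and sets past 1.5-fold. Other member sets are given to complete a gene, a core or a complex. Members and lists were chosen with earlier results of these data known. Other scalings used R 4.3.3 and limma 3.58.1. The rest used Python 3.11.15 with pandas 2.3.3 and numpy 2.4.6. The counting was tested on simulated data. Promoter words were searched in RefSeq promoters (GRCh38.p14). Alternatives were other scalings, 16 added to linear values, sets merged per gene, other floors, other limits and a single control.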

Additional observations from a re-analysis of the deposited data

How the results depend on the processing

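Of 108 medians recomputed under alternatives, 3 had another sign. The spread of a median between repeated arrays is unknown. The SD of single sets between the controls, the one spread at hand, is as large as most medians, so it says little about their stability. The complex II median of sgIL1RN1~3 minus the controls was 0.06 and became -0.0943 with 1 set per gene, and -0.05 with sgTetOmut alone. That of complex III became 0.0024 with sgTetO alone. Over all subunits that median was -0.07 and became 0.00 with sgTetO alone and -0.12 with sgTetOmut alone. The number of members higher against both controls was 1 and became 0 with 16 added, 0 at 2-fold, 5 at 0.32 log2 units and 2 with sgTetO alone as the reference. The number lower was 0 and became 2 at 0.32 log2 units. The number higher on sgTetO than on sgTetOmut was 0 and became 1 at 0.32 log2 units. For the other mitochondrial lists, the 1 higher set became 0 under cyclic loess, median centring, 16 added, 1 set per gene, the mean of sets, the floor at the median and 2-fold. It became 12 at 0.32 log2 units and 4 with sgTetO alone. The 1 lower set became 0 with 1 set per gene, with the mean of sets and at 2-fold, 7 at 0.32 log2 units and 2 with sgTetOmut alone. The cause of these moves was not tested, other than the limits and references themselves. No paired analysis was possible because each guide has 1 array. The planned comparison with protein length was not run. Signal near the Bacillus level limits the dim sets. The rescaled array order and the rescaled sets past the lower limit were chosen after seeing the data.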

Other observations

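Some members have probe sets that carry several symbols and were therefore outside the rule. NDUFS5 read 11.67 on sgTetOmut, 11.60 on sgTetO and 11.55 on sgIL1RN1~3, in a set also annotated to RPL10. UQCRH, shared with UQCRHL, read 12.46, 12.41 and 12.36. ATP5MF, shared with ARMC2-AS1, read 11.99, 11.87 and 11.77. NDUFC2, shared with a read-through transcript, read 10.45, 10.41 and 10.40. All of these were highest on sgTetOmut and lowest on sgIL1RN1~3. The sets of NDUFS8, a core iron-sulfur subunit of complex I, were both highest on sgIL1RN1~3, with 11.02, 10.90 and 11.05 for 203190_at and 6.59, 6.61 and 6.87 for 203189_s_at.

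NDUFB2-AS1, the antisense RNA at the NDUFB2 gene, read 5.87, 6.25 and 5.71, highest on sgTetO. The NDUFB2 sets read 10.91, 10.66 and 10.87 for 218200_s_at and 8.82, 8.58 and 8.64 for 218201_at, both lowest on sgTetO. These sets were singled out after their values had been seen, and the difference was not tested. Between 0 and 3 of the 99 subunit sets had equal values on a given pair of arrays, whereas between 6.03% and 8.08% of all single-symbol sets did. The latter include a larger share of sets at background. Among sets above it on every array, the controls were equal in 1 of 93 subunit sets and 802 of all 13454. For sgIL1RN1~3 these counts were 2 and 562 with sgTetO, and 0 and 487 with sgTetOmut. The reason for the difference was not tested.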
